A study of Mus musculus with 6 samples.

Results

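The genes examined here encode the desmosome, a junction that fastens neighbouring cells to each other. They are Dsp, Pkp1, Pkp2, Pkp3, Pkp4, Jup, Dsg2, Dsc2 and Perp, and every probe set that the annotation of the array assigned to 1 of them was taken. This gave 22 of the 45101 probe sets on the array, for 9 of 18193 genes. They were measured in primary chondrocytes cultured from the rib cages of newborn mice, on 3 arrays of Slc39a13-KO cells and 3 arrays of wild-type cells. In the KO mice a neomycin cassette replaced exons 6 to 8 of both alleles of Slc39a13, which encodes the zinc transporter ZIP13, and the mutation was made in R1 embryonic stem cells. The rib cages were digested with collagenase, and the strained cells were grown in medium with serum. No sort of the cells is described. Nothing states that the 3 arrays of a group came from separate mice or cultures, so the p-values reflect array-to-array spread alone. That spread may be in part technical.

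In a desmosome, the cadherins of the desmoglein and desmocollin families reach across the gap between cells. Inside the cell their tails bind plakoglobin and the plakophilins, which in turn bind desmoplakin, and desmoplakin holds the intermediate filaments. Desmosomes are known from epithelia, from heart muscle and from the mesothelium that lines the body cavities, whereas chondrocytes in cartilage lie apart in their matrix.

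Signals were deposited on a linear scale, scaled to a trimmed mean of 500.003 on each array. Array 1 of the KO group stood apart, with correlations of log2 values of 0.921 to 0.925 with the other arrays, against 0.944 to 0.960 among those. Xist, the transcript of the inactive X chromosome, was high on KO array 2 and wild-type array 3, so that each group held 1 such array. Within a group the arrays thus did not all hold the same RNA, but whether each came from its own culture is not stated. The targeted gene was lower on every array labelled KO, but whether its probe set, 1423926_at, lies in the deleted exons was not checked here. Slc39a13 had signals of 100, 196 and 165 on the KO arrays and 901, 1081 and 991 on the wild-type arrays (log2 fold change -2.67, SE 0.22, adjusted p = 0.000535 with limma). The markers of chondrocytes were all measured (8 of 8), with a summed signal of 99086 to 139842 on the KO arrays and 69075 to 83425 on the wild-type arrays.

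Of the 9 genes, Perp, Dsp and Pkp1 were lower in KO cells and 0 were higher. For the test, log2(signal + 7.96) was compared between the groups with limma, KO minus wild type, over the 23294 probe sets whose mean log2 value was at least 5.80. All p-values were adjusted over these by the method of Benjamini and Hochberg, with a threshold of 0.05. Of the 22 desmosome probe sets 12 passed this filter, from 8 genes, and both probe sets of Dsc2 were under it. Of the 12, 3 were lower in KO cells, 0 were higher and 9 did not pass the test, where 3.37% of all tested probe sets were lower and 3.44% higher (6.81% in all). The called probe set of Dsp reached the filter only through its wild-type arrays, with a mean log2 value of 5.08 in KO cells and 7.24 in wild-type cells. At an unadjusted p under 0.05, 4 of the 12 were lower and 1 was higher. All KO arrays lay below all wild-type arrays for 4 of the 12 probe sets, where 13.7% of all tested probe sets did so, and above them for 1, where 15.1% did so. The median log2 fold change was -0.06 over the 12 probe sets and 0.01 over all tested probe sets. With each gene taken on its brightest probe set, the median was -0.57 over the 8 desmosome genes and 0.01 over all 12715 genes. The desmosome genes were chosen with earlier results of these data known, so these counts and medians are descriptions only. These are bulk cultures, in which fewer cells of a type and less RNA per cell cannot be told apart.

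**Figure D1:**
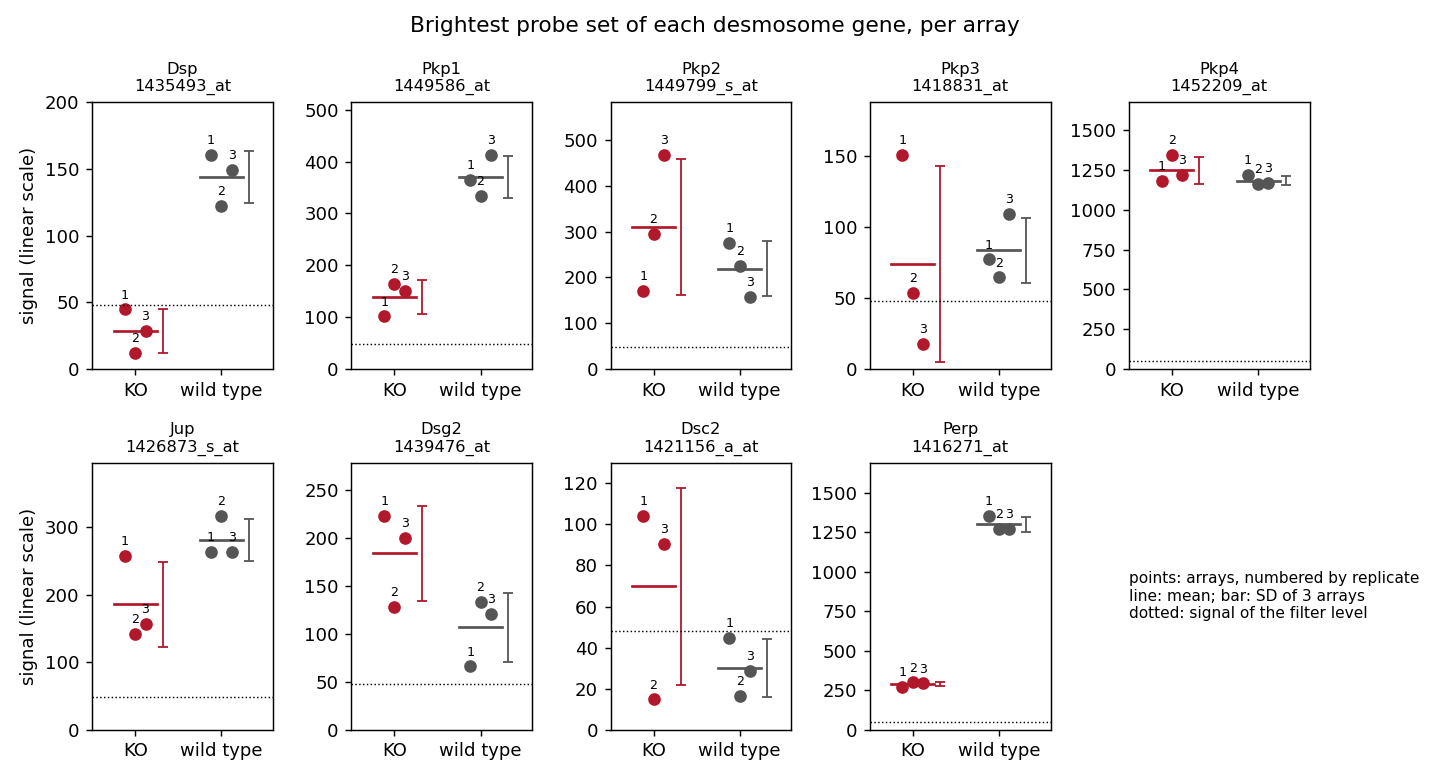
Signal on each array (linear scale) for the brightest probe set of each of the 9 desmosome genes, with KO arrays left of wild-type arrays, lines at the means, bars for the SD of 3 arrays and a dotted line at the filter level (47.9). The KO arrays lie apart from the wild-type arrays for Perp, Pkp1 and Dsp, from 273 to 299 against 1271 to 1352 for Perp. For Jup they also lie below, by a small margin (highest KO signal 258, lowest wild-type signal 263).

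Perp encodes a membrane protein with several membrane spans that sits in desmosomes, and it is also known as a target of the tumour suppressor p53. It lies on chromosome 10 (18845071 to 18857073, build GRCm38.p6) and was measured by 1 probe set, 1416271_at. The signals were 273, 299 and 293 on the KO arrays and 1352, 1271 and 1273 on the wild-type arrays. The groups were far apart and each was tight. The means were 288 ± 13.8 in KO cells and 1299 ± 46.3 in wild-type cells (SD, n = 3 each). The log2 fold change was -2.14 (SE 0.10, 95% interval -2.38 to -1.91), with an adjusted p of 4.96e-05, so that wild-type cells were 4.42-fold above KO cells on this scale. By its p-value Perp ranked 1 of all 23294 tested probe sets, while 37 probe sets, Perp included, had a log2 fold change at least as low. Without KO array 1 the log2 fold change was -2.10 (adjusted p = 5.82e-05), and without both arrays with high Xist it was -2.18 (adjusted p = 0.00766).

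The desmosomal cadherins on the list are desmoglein 2 and desmocollin 2, the members of their families that simple epithelia and heart muscle use. Dsg2 lies on chromosome 18 (20558074 to 20604526) and had 6 probe sets, of which 3 were tested and none passed the test. The brightest, 1439476_at, had signals of 223, 128 and 200 on the KO arrays and 66.0, 133 and 121 on the wild-type arrays. KO array 2 fell within the wild-type range, so the groups overlapped. The means were 184 ± 49.5 in KO cells and 107 ± 35.8 in wild-type cells (log2 fold change 0.76, SE 0.32, 95% interval 0.05 to 1.47, adjusted p = 0.193). For 1425619_s_at the signals were 86.3, 74.4 and 60.04 on the KO arrays and 41.7, 59.6 and 42.5 on the wild-type arrays. All KO arrays were above all wild-type arrays there, by a small margin, and the difference did not pass the test (log2 fold change 0.55, SE 0.39, adjusted p = 0.442). On 1449740_s_at it averaged 88.6 ± 9.90 in KO cells and 90.4 ± 15.9 in wild-type cells (log2 fold change -0.02, SE 0.30, adjusted p = 0.979). The probe sets of Dsg2 thus did not give a common direction, and 2 long noncoding RNA genes, Gm46630 and Gm16090, overlap it in the annotation. Its other probe sets, 1460380_at, 1449741_at and 1426153_a_at, were dim and overlapped between the groups.

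Dsc2, also on chromosome 18 (20030633 to 20059554), was too dim to be tested. On 1426911_at the signals were 10.7, 6.04 and 39.8 on the KO arrays and 59.1, 62.2 and 45.4 on the wild-type arrays, with all KO arrays below all wild-type arrays. On 1421156_a_at they were 104, 14.7 and 90.6 on the KO arrays and 44.7, 16.3 and 28.8 on the wild-type arrays, and the groups overlapped. When the filter was left out, neither passed (log2 fold changes -1.44 and 0.81, adjusted p = 0.220 and 0.601).

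Plakoglobin, the product of Jup, binds the tails of the cadherins in desmosomes and also in adherens junctions. Jup lies on chromosome 11 (100368856 to 100397839) and had 1 probe set, 1426873_s_at. The signals were 258, 142 and 157 on the KO arrays and 263, 317 and 264 on the wild-type arrays. All KO arrays were below all wild-type arrays, but KO array 1 came close to them. The means were 186 ± 62.8 in KO cells and 281 ± 30.7 in wild-type cells, and the log2 fold change of -0.62 (SE 0.23, 95% interval -1.14 to -0.10) did not pass the test (adjusted p = 0.149). Without KO array 1, the array that stood apart, it passed (log2 fold change -0.87, adjusted p = 0.0229).

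The plakophilins link plakoglobin and the cadherins to desmoplakin and differ in where they are used. Plakophilin 1 is best known from the upper layers of stratified epithelia such as the epidermis. Pkp1 (chromosome 1, 135871394 to 135919207) was measured by 1449586_at, with signals of 101, 164 and 150 on the KO arrays and 365, 333 and 412 on the wild-type arrays. The groups did not overlap, with means of 138 ± 32.8 in KO cells and 370 ± 39.9 in wild-type cells. The log2 fold change was -1.39 (SE 0.21, 95% interval -1.86 to -0.92, adjusted p = 0.00615), and wild-type cells were 2.62-fold above KO cells on this scale. Without KO array 1 Pkp1 kept its call (log2 fold change -1.19, adjusted p = 0.00508), whereas without both arrays with high Xist it did not (-1.44, adjusted p = 0.0647).

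The other plakophilins did not pass the test. Plakophilin 2 is the one that heart muscle relies on. Pkp2 (chromosome 16, 16213345 to 16272712) had signals of 171, 295 and 467 on the KO arrays and 276, 225 and 157 on the wild-type arrays for 1449799_s_at. The KO arrays were widely spread, and the groups overlapped (log2 fold change 0.41, SE 0.33, 95% interval -0.33 to 1.16, adjusted p = 0.505). For 1429183_at the means were 198 ± 65.7 in KO cells and 177 ± 10.4 in wild-type cells (log2 fold change 0.10, SE 0.26, adjusted p = 0.860). The probe sets 1460511_at and 1420259_at of Pkp2 were under the filter, and the groups overlapped in both.

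Plakophilin 3 is found in most epithelia. Pkp3 (chromosome 7, 141078229 to 141090511) had signals of 151, 53.3 and 17.6 on the KO arrays and 77.1, 64.5 and 109 on the wild-type arrays for 1418831_at. The KO arrays spanned more than the wild-type arrays on both sides, and the interval of the log2 fold change was wide (-0.51, 95% interval -1.86 to 0.84, adjusted p = 0.660). Its other probe set, 1418832_at, was under the filter. Plakophilin 4, also called p0071, is found at adherens junctions as well as at desmosomes. Pkp4 (chromosome 2, 59160850 to 59355205) had signals of 1180, 1344 and 1222 on the KO arrays and 1218, 1165 and 1168 on the wild-type arrays for 1452209_at. The groups overlapped, and the interval of the log2 fold change was narrow (0.07, SE 0.09, 95% interval -0.13 to 0.28, adjusted p = 0.667). For 1438677_at of Pkp4 it was -0.10 (SE 0.18, 95% interval -0.51 to 0.30, adjusted p = 0.780).

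Desmoplakin, the product of Dsp, anchors intermediate filaments to the desmosome and is part of every desmosome. Dsp (chromosome 13, 38151294 to 38198577) had signals of 44.6, 12.2 and 28.3 on the KO arrays and 160, 122 and 149 on the wild-type arrays for 1435493_at. The groups were well apart, but all 3 KO signals were below 47.9, the signal at the filter. The means were 28.4 ± 16.2 in KO cells and 144 ± 19.5 in wild-type cells. The log2 fold change was -2.16 (SE 0.44, 95% interval -3.14 to -1.18, adjusted p = 0.0195), and its size depends on the pseudocount of 7.96 because the KO signals were so low. Without KO array 1 it was -2.48 (adjusted p = 0.00736). The call was lost when any wild-type array was left out, with adjusted p = 0.109, 0.0872 and 0.0998 without arrays 1, 2 and 3, and without both arrays with high Xist (0.152).

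Dsp had 2 more probe sets, both under the filter. On 1435494_s_at the signals were 4.87, 33.0 and 26.8 on the KO arrays and 79.1, 78.2 and 72.9 on the wild-type arrays, again with all KO arrays below all wild-type arrays. On 1427610_at they were 7.10, 34.2 and 23.4 on the KO arrays and 25.1, 7.14 and 46.1 on the wild-type arrays, and the groups overlapped. With no filter, neither passed the test (log2 fold changes -1.68 and -0.15, adjusted p = 0.135 and 0.938). One tested probe set thus carries the call of Dsp, another was low on the same arrays, and the last was dim on all.

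**Figure D2:**
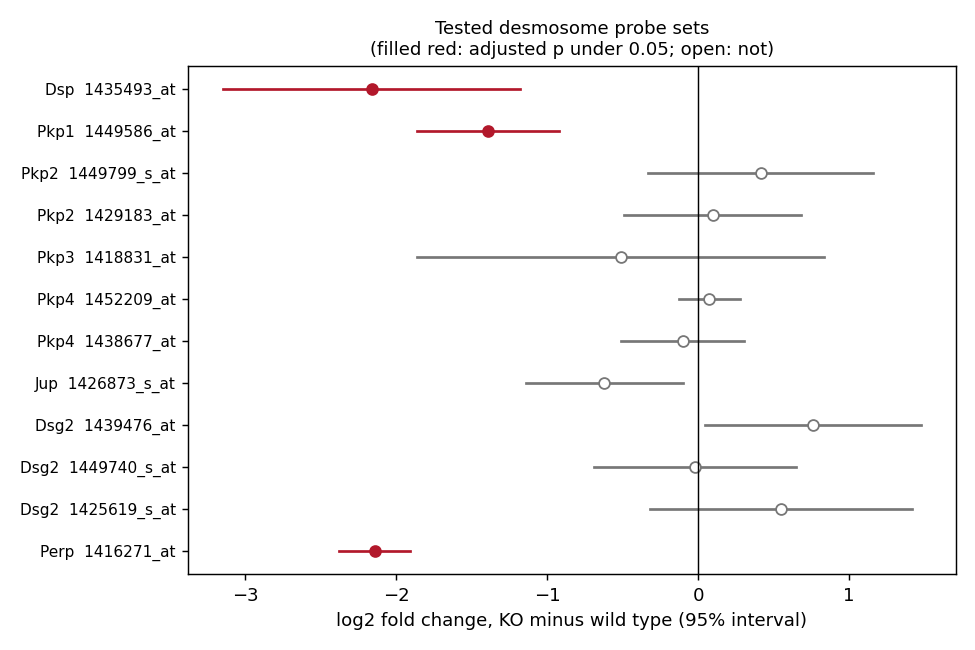
Log2 fold change, KO minus wild type, of the 12 tested desmosome probe sets with 95% intervals from limma, filled where the adjusted p was under 0.05. Perp, Dsp and Pkp1 are filled and lie between -2.16 and -1.39, with the narrowest of the 3 intervals at Perp.

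Dsp was the called gene with a sequence upstream of its start in the RefSeq promoter table, which also held windows of Pkp4 and Jup. The 250 bases before the start of Dsp (13:38151044-38151293, plus strand, GRCm38.p6) are shown because Dsp was lower in KO cells, with the CpG dinucleotides in capitals:
Dsp upstream window: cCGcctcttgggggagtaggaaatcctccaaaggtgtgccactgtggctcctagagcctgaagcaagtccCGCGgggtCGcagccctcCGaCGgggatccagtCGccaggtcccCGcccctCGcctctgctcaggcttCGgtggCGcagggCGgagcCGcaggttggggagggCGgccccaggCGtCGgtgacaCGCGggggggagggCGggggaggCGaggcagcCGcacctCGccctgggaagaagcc
The window holds 22 CpG dinucleotides, where the median of 32851 windows of the same length is 6, and 85.2% of windows hold fewer. Its GC content is 72.4%, against a median of 52.4%. The motifs CACCTG, an E-box that repressors of the Snail and Zeb families bind, AACCGG, the core bound by grainyhead-like factors, TGANTCA, bound by AP-1, and GGAATG, bound by TEAD factors, were searched on both strands. None of these letters was found in this window, nor in that of Jup, and CACCTG was found 1 time in 1 of the windows of Pkp4. Over all windows, 17.2%, 5.62%, 6.75% and 12.6% hold them in the order named.

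The other genes of the desmosome, a list of 11, were mostly not measurable. Desmogleins and desmocollins of stratified epithelia made up most of it, and 4 of the 11 were tested, with 0 lower and 1 higher in KO cells (1 lower without KO array 3). Of all 12715 genes, 3.92% were lower and 3.97% higher on their brightest probe set. The gene that was higher was Cdsn, which encodes corneodesmosin, a protein of the modified desmosomes in the outermost layer of the skin. Its signals were 4908, 4038 and 4681 on the KO arrays and 1619, 2172 and 2535 on the wild-type arrays. The groups did not overlap, with means of 4542 ± 451 in KO cells and 2108 ± 461 in wild-type cells (log2 fold change 1.12, SE 0.15, adjusted p = 0.00352). Evpl and Ppl encode envoplakin and periplakin, which are plakins of the cornified envelope, and Pnn encodes pinin. Their log2 fold changes were -0.41, -0.57 and -0.24, and none passed the test (adjusted p = 0.490, 0.438 and 0.528). The median of the 4 was -0.32.

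Intermediate filaments are what desmoplakin holds, and 12 of the 16 genes on that list were tested. Of these, 6 were lower in KO cells and 0 higher, with a median log2 fold change of -1.40, and 3 were lower without both arrays with high Xist. For comparison, 3.92% of all 12715 genes were lower and 3.97% higher (7.89% in all) on their brightest probe set. The genes that were lower were Krt19 (-3.60, adjusted p = 0.0187), Krt14 (-2.61, adjusted p = 0.00833), Krt7 (-2.51, adjusted p = 0.000681) and Nes (-2.42, adjusted p = 0.0360), besides Krt8 (-2.30) and Krt18 (-2.17). Keratins 7, 8, 18 and 19 form the filaments of simple epithelia and of mesothelium, and keratin 14 those of basal cells. Krt8 had signals of 177, 204 and 143 on the KO arrays and 783, 699 and 1253 on the wild-type arrays. Krt18 had 228, 241 and 144 on the KO arrays and 807, 830 and 1184 on the wild-type arrays. In both, wild-type array 3 was the highest of all. Krt19 had signals of 155, 14.4 and 9.37 on the KO arrays and 382, 354 and 792 on the wild-type arrays, so its mean log2 value in KO cells was under the filter and the size of its log2 fold change depends on the pseudocount. Nes, which encodes nestin, was lower on 1449022_at, while its probe set 1418289_at gave 0.02 (adjusted p = 0.974). The call of Krt19 was lost without KO array 2 or any 1 wild-type array, and that of Nes without KO array 1 or 2 or any 1 wild-type array. Vim, which encodes vimentin, the filament protein of mesenchymal cells such as chondrocytes, gave 0.11 (adjusted p = 0.528).

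Adherens junctions, which bind actin rather than intermediate filaments, had 15 of 20 genes tested, of which 2 were lower and 0 higher (median -0.18). These were Vcl, which encodes vinculin (-0.76, adjusted p = 0.00227), and Ctnnal1, which encodes a relative of alpha-catenin (-0.55, adjusted p = 0.0417). The other probe sets of Vcl and Ctnnal1 gave -0.42 and -0.42 and did not pass (adjusted p = 0.226 and 0.235), and the call of Ctnnal1 was kept only when KO array 1 was the array left out. Of 9 genes of hemidesmosomes, which anchor keratins to the basement membrane, 5 were tested and none passed (median -0.12). The lowest p-values were those of Plec, plectin (-0.25, adjusted p = 0.0722) and Dst, dystonin (0.24, adjusted p = 0.191). Of 9 genes of gap junctions and their scaffold 5 were tested, and 1 was lower, Tjp1, which encodes the scaffold protein ZO-1 (-0.73, adjusted p = 0.00132, median -0.26). Beside the counts of these lists, 3.92% of all 12715 genes were lower and 3.97% higher.

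**Figure D3:**
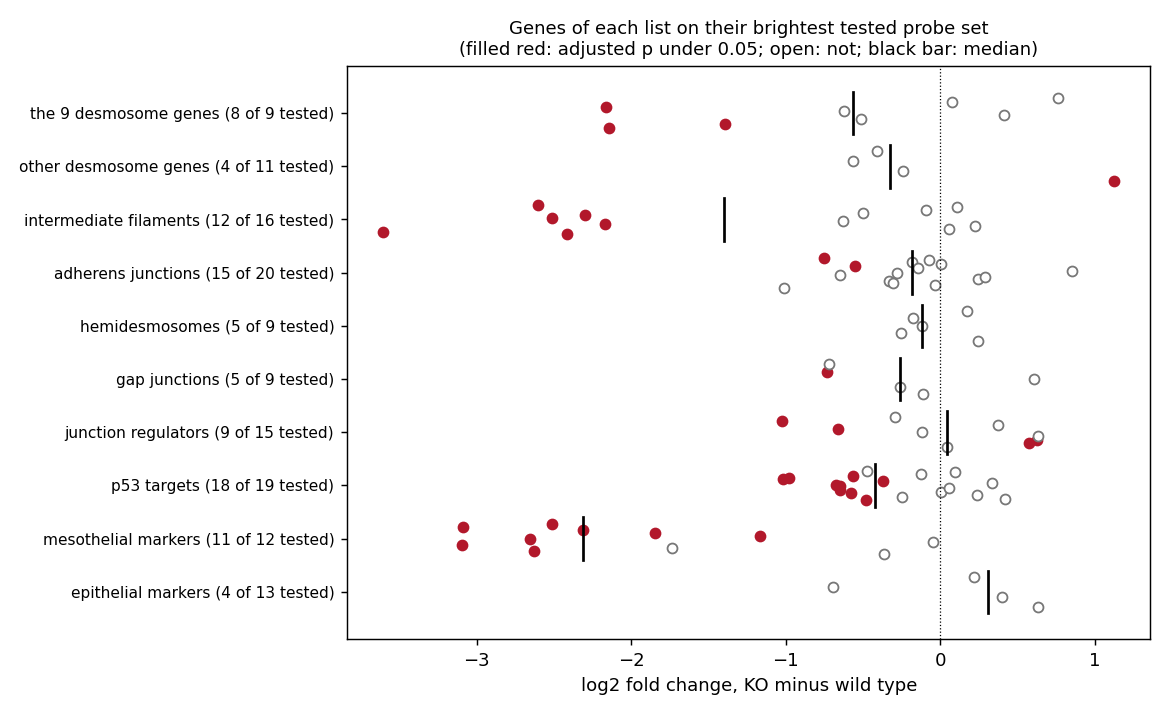
Log2 fold change, KO minus wild type, of each gene on its brightest tested probe set, by list, with filled points for an adjusted p under 0.05 and a bar at the median. The median lies at -0.57 for the desmosome genes, -1.40 for intermediate filaments, -0.18 for adherens junctions and -2.31 for mesothelial markers.

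Among 15 transcription factors known to regulate epithelial junctions 9 were tested, with 2 lower and 2 higher (median 0.04). Of all 12715 genes, 3.92% were lower and 3.97% higher. Klf4 and Klf5, which encode factors that promote epithelial differentiation, were lower (-1.03, adjusted p = 0.00152, and -0.66, adjusted p = 0.00527). Klf4 had signals of 1875, 2527 and 1969 on the KO arrays and 4545, 4084 and 4271 on the wild-type arrays. The other tested probe set of Klf5 gave -0.48 and did not pass (adjusted p = 0.424). Snai1 and Snai2, which encode the repressors Snail and Slug, were higher (0.58, adjusted p = 0.00956, and 0.63, adjusted p = 0.0260). The other probe set of Snai2, 1418673_at, gave -0.04 (adjusted p = 0.912). With each array centred on its median signal the calls of Snai1 and Snai2 were lost. That of Snai1 was also lost without wild-type array 3, and that of Snai2 without KO array 2 or any 1 wild-type array.

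Because Perp is a target of p53, 19 other genes that p53 is known to activate were examined. This list was chosen with earlier results of these data known. Of the 18 tested, 9 were lower in KO cells and 0 higher, where 3.92% and 3.97% of all 12715 genes were. The median log2 fold change of the 18 was -0.42. The number lower was 5 without wild-type array 1, 4 without wild-type array 2 and 3 without both arrays with high Xist, and the number higher was 1 without KO array 1. The largest changes were those of Eda2r, a receptor of the TNF receptor family (-1.01, adjusted p = 0.00801), and Trp53inp1, a stress protein that acts on p53 (-0.98, adjusted p = 0.000990). They were followed by Phlda3, an inhibitor of Akt (-0.67, adjusted p = 0.00647), and Ccng1, cyclin G1 (-0.65, adjusted p = 0.00256). Ccng1 had signals of 9049, 10377 and 10203 on the KO arrays and 15987, 15421 and 14945 on the wild-type arrays. The other probe set of Trp53inp1 gave -0.24 (adjusted p = 0.492). The call of Eda2r was lost without wild-type array 1 or 2. In log2 fold change each of these 4 was nearer to 0 than Perp was.

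Markers of other cells were measured in the same cultures. The inner face of the rib cage is lined by pleura, a mesothelium. The mesothelial list was written with earlier results of these arrays known. Of its 12 genes 11 were tested, with 8 lower in KO cells and 0 higher, where 3.92% and 3.97% of all 12715 genes were. The median log2 fold change of the 11 was -2.31. The number lower was 5 without both arrays with high Xist. Msln, mesothelin, had signals of 26.1, 151 and 36.8 on the KO arrays and 425, 488 and 695 on the wild-type arrays. It was -3.09 (adjusted p = 0.00738), and Upk3b and Upk1b, which encode uroplakins, and Gpm6a, which encodes a membrane glycoprotein, were -3.09, -2.63 and -2.65 (adjusted p = 0.00108, 0.00196 and 0.00126). The summed signal of all 12 genes was 897 to 1681 on the KO arrays and 3946 to 6445 on the wild-type arrays. Wt1, Rspo1 and Nkain4 did not pass (log2 fold changes -1.73, -0.36 and -0.05, adjusted p = 0.0623, 0.640 and 0.937). Muc16, under the filter, had signals of 119, 40.9 and 51.3 on the KO arrays and 24.4, 37.9 and 38.8 on the wild-type arrays. All its KO signals were thus above all its wild-type signals. The 8 called markers moved in the direction of Dsp, Pkp1 and Perp, and their part in the difference of these 3 genes was not tested. The summed signal of all 13 genes on the epithelial list was 724 to 1020 on the KO arrays and 660 to 748 on the wild-type arrays. Of this list 4 were tested and none passed. Its lowest p-values were those of Grhl2 (0.63, adjusted p = 0.244) and Epcam (0.40, adjusted p = 0.398), and Cdh1, which encodes E-cadherin, was under the filter.

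The wild-type arrays differed among themselves in the mesothelial markers, and the same comparison is given for the other genes. All 11 tested markers were highest on wild-type array 3 among the wild-type arrays, at 1.31 to 1.82 times the mean signal of arrays 1 and 2 (median 1.53). Of the 6 intermediate filament genes that were lower in KO cells, 5 were also highest there. The same ratio was 1.06 for Dsp, 1.18 for Pkp1 and 0.970 for Perp. Among the desmosome genes that did not pass the test it was 1.54 for Pkp3, 1.22 for Dsg2, 0.980 for Pkp4, 0.909 for Jup and 0.625 for Pkp2 on their brightest probe sets. The median of this ratio was 0.982 over the p53 targets, 0.996 over the chondrocyte markers and 1.02 over the fibroblast markers. Over the lists other than the mesothelial one it ran from 0.699 (epithelial markers) to 1.30 (intermediate filaments). These ratios compare single arrays and have no test. The share of all tested genes that were highest on wild-type array 3 was not computed. The part of mesothelial cells in the lower desmosome signals was not tested.

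**Figure D4:**
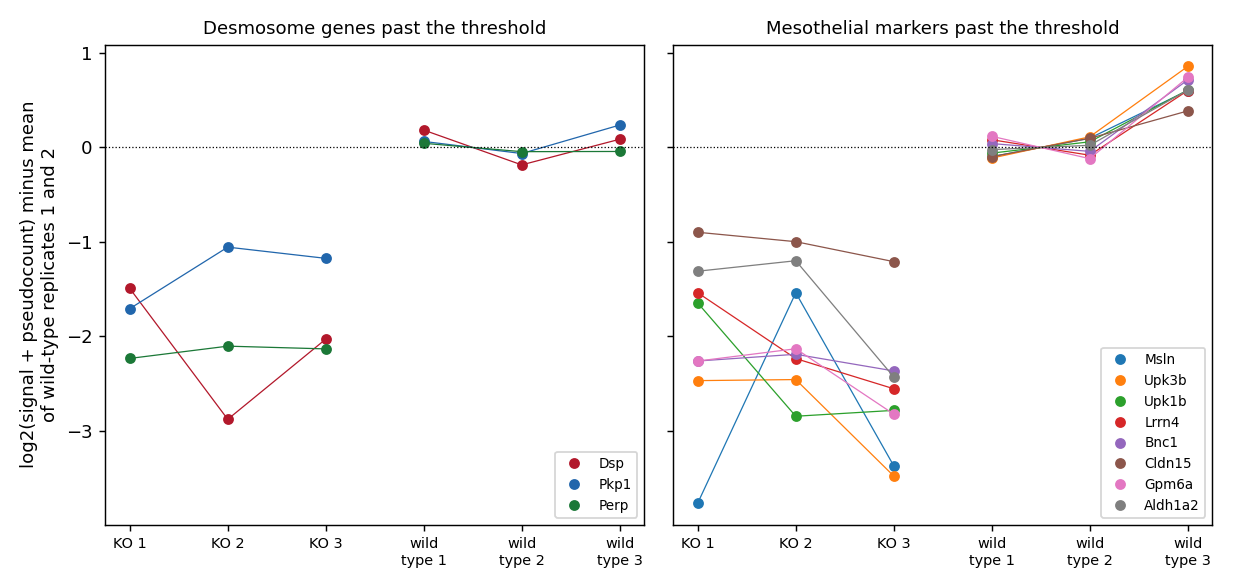
Value of log2(signal + 7.96) on each of the 6 arrays, KO arrays on the left, minus the mean of wild-type arrays 1 and 2, for the 3 called desmosome genes (left panel) and the 8 called mesothelial markers (right panel). Lines join the values of a gene and imply no order. The markers lie higher on wild-type array 3 than on the other wild-type arrays, at 1.31 to 1.82 times their mean signal. The same ratio is 1.06 for Dsp, 1.18 for Pkp1 and 0.970 for Perp.

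For each called gene, the 3 genes with the most similar profile were sought among the brightest tested probe sets, by the root mean square difference of log2 values over the 6 arrays, each profile centred on its own mean. For Dsp they were Myrf (0.36), Krt14 (0.39) and Lrrn4 (0.39), of which Lrrn4 is on the mesothelial list. For Pkp1 they were Celf2 (0.13), Rnf227 (0.15) and Rffl (0.15). For Perp they were Mt2 (0.25), Bex1 (0.26) and Cavin2 (0.26), where Mt2 encodes the zinc-binding protein metallothionein 2. Myrf, Krt14 and Lrrn4 had log2 fold changes of -1.63, -2.61 and -2.31, Celf2, Rnf227 and Rffl of -1.22, -1.26 and -1.14, and Mt2, Bex1 and Cavin2 of -1.77, -1.81 and -1.77, all past the test (the highest adjusted p was 0.0117). The profiles were compared over the same 6 arrays that gave the calls, so lower values in KO cells follow from this choice.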

How the data were processed

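Gene expression was measured on 6 Affymetrix arrays, 3 for each group. According to the authors, biotin-labelled RNA was hybridised, and the deposited intensity values, 1 per probe set and array on a linear scale, were made with MAS5 (no version given in the sources used here), while the methods name gcRMA. The equal trimmed mean (500.003 after trimming 2% at each end) and the unequal medians (80.7 to 108) fit MAS5 scaling, and the values were used as deposited. No detection calls were used here, and the number of arrays limits the precision.

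Of the 45101 probe sets, 34945 had 1 gene symbol in the array annotation and were not among the 64 controls, which were left out. Those with several symbols (932) or none (9211), some controls included, were left out too. Of those kept, 34741 matched a mouse gene table by Entrez identifier. The pseudocount of 7.96 was the 10th percentile of all values, and the filter removed those whose mean log2 value fell below the 40th percentile. The log2 scale then understates changes of dim genes. The comparison used limma 3.58.1 (R 4.3.3), with lmFit followed by a trended eBayes and no covariates, over 23294 probe sets, with Benjamini-Hochberg adjustment over all of them. For a gene with several probe sets, the brightest tested one stands in lists. Standard deviations are of signals over 3 arrays. The fit was tested on simulated data.

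The desmosome genes, the junction and pathway lists and the cell type lists were chosen with earlier results of these data known. Named are all desmosome genes, Slc39a13, from each list at most 4 called members by size of change, or, where none was called, the 2 of lowest p, and the most similar profiles. Krt8, Krt18, Vim, Evpl, Ppl, Pnn, Cdh1, Wt1, Rspo1, Nkain4 and Muc16 are outside this rule and were chosen after their values were seen. So are Col2a1, Hapln1, Sox9, Chad, Matn1, Pdgfra and Thy1. Positions are those of a RefSeq gene table (GRCm38.p6) and upstream sequences are from RefSeq. Planned protein alignments were not run. Alternatives were other filters, pseudocounts, scalings and probe set rules, a replicate block, sex as a covariate, untrended limma, the methods' t-test and leaving out arrays.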

Additional observations from a re-analysis of the deposited data

How the results depend on the processing

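Perp passed the test in all 20 alternatives, with a log2 fold change of -2.24 to -2.07. Pkp1 lost its call in 3 of 20, with limma without its trend (adjusted p = 0.0584), the methods' t-test after adjustment (0.0966) and without both arrays with high Xist (0.0647), which was added once the data had been seen. Dsp lost it in 6 of 19, in the same 3 (0.0688, 0.124 and 0.152) and without each wild-type array. In each of the 3 settings 1 desmosome probe set stayed past the threshold, Perp, and leaving out 1 array gave 2 to 4. The count over all probe sets was 1587 (785 lower, 802 higher). It was 390 (259 lower, 131 higher) with median centring, 879 with probe sets averaged for each gene, 108 without the trend, 84 with the t-test, 198 without both arrays with high Xist, and 434 to 2276 when 1 array was left out. The t-test unadjusted gave 2043 lower and 2326 higher, of which 3 and 0 were desmosome probe sets. With the replicate number as a block it was 837, and the calls of Dsp, Pkp1 and Perp were unchanged. Deviations of same-numbered arrays correlated at 0.033, 0.015 and -0.054, so no shift shared by number was seen. With 3 arrays in each group this cannot tell whether same-numbered arrays were prepared together. The cause of each lower count was not tested. Without the trend, 3 intermediate filament genes, 2 p53 targets and 3 mesothelial markers were lower, and with the t-test after adjustment 0 of each.

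Signs turned only for differences that had not passed. Pkp4 1452209_at was -0.020 with median centring and -0.014 with its probe sets averaged. Without both arrays with high Xist, Pkp2 1429183_at was -0.026 and Pkp4 1438677_at 0.0077. Leaving out 1 array gave -0.085 to 0.39 for Pkp2 1429183_at, -0.21 to 0.051 for Pkp4 1438677_at, -0.16 to 0.064 for Dsg2 1449740_s_at and -1.18 to 0.14 for Pkp3 1418831_at. Signals near the filter, as of Dsp in KO cells and of Dsc2 in both groups, are the least certain.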

Other observations

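The remaining cell type lists gave these values beside the desmosome genes. Of all 12715 genes, 3.92% were lower and 3.97% higher on their brightest probe set. Of 8 chondrocyte markers, 0 were lower in KO cells and 3 higher, with a median log2 fold change of 0.31. The higher ones were Acan, which encodes aggrecan (0.91, adjusted p = 0.00667), Comp, cartilage oligomeric matrix protein (0.76, adjusted p = 0.00630), and Col9a1, a chain of collagen IX (0.53, adjusted p = 0.0352). The other 5 did not pass, Col2a1 (0.50), Hapln1 (0.13), Sox9 (0.04), Chad (-0.35) and Matn1 (-0.40). The call of Col9a1 was lost with median centring, without KO array 2 and without any 1 wild-type array, and 0 were higher without both arrays with high Xist. Of 9 fibroblast markers 8 were tested, with 2 lower and 4 higher (median 0.50). The higher ones were Col1a1 (0.69), Col1a2 (0.59), Postn (0.55) and Col3a1 (0.52). Pdgfra (-0.51, adjusted p = 0.0359) and Thy1 (-0.49, adjusted p = 0.0213) were lower. All of these lost their calls with median centring. The number higher was 1 without KO array 2 or wild-type array 2 or 3, and 0 without wild-type array 1, and the number lower was 0 without any 1 wild-type array and 1 without KO array 3. Of 13 markers of muscle and heart 6 were tested, with Tnnt3, a troponin of fast muscle, higher (1.17, adjusted p = 0.00221) and Acta1, skeletal muscle actin, lower (-0.72, adjusted p = 0.0276; lost with median centring and without any 1 wild-type array), and a median of -0.37. Of 8 endothelial markers 2 were tested, Kdr (0.26, adjusted p = 0.749) and Egfl7 (-0.06, adjusted p = 0.914), with a median of 0.10. Of 8 macrophage markers 5 were tested and none passed (median 0.31), while 2 were higher without KO array 2 and 1 with sex as a covariate, with the lowest p-values at Ctss (2.05, adjusted p = 0.0904) and Lyz2 (1.05, adjusted p = 0.118).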
